A study of Mus musculus with 6 samples.

Results

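Amino acid and neurotransmitter transporters of 7 solute carrier families were compared between neurosphere cultures from 2 sources of mouse neural crest. The genes were taken by name from the array annotation, as every symbol of the families Slc1, Slc3, Slc6, Slc7, Slc36, Slc38 and Slc43 that ends in a plain number. This gave 58 of 18194 named genes, with 118 of the 45101 probe sets, and 1 probe set per gene was used, that with the highest mean over the 6 arrays. Slc1 contributed 7 genes, Slc3 2, Slc6 18, Slc7 15, Slc36 4, Slc38 9 and Slc43 3.

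The study measured total RNA of passage 3 neurospheres, free-floating spheres of dividing cells, on 6 Affymetrix mouse arrays. The group rNCSC (3 arrays) came from dorsal root ganglia of C57BL/6J embryos at day 12.5, and is described as reprogrammed by culture, with the ability to form central nervous system progeny. The group pNCSC (3 arrays) came from the palate of adult C57BL/6J mice aged 6 to 8 weeks, with tissue of 3 to 5 mice, and the labels describe no gain of central progenitor markers. Both groups grew without serum in DMEM/F12 with bFGF (20 or 40 ng/ml), heparin (0.5 U/ml), EGF (20 ng/ml), glutamine (1%), and the supplements N2 (1%) and B27 (1% or 3%), and the labels do not say which group received which level of bFGF or B27. No genetic change is given for either group. Tissue and age change together between the groups and cannot be told apart. Whether arrays within a group stem from separate cultures is not stated in the labels, so p-values here reflect only how these samples vary, which may be technical.

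Solute carriers move amino acids and transmitters across membranes, and the families differ in what drives them. Slc1 and Slc6 carriers use the sodium gradient to take up glutamate, GABA, glycine, monoamines, taurine and creatine. Slc7 light chains pair with a heavy chain from Slc3 and mostly exchange one amino acid for another, and Slc7 also holds the carriers of cationic amino acids. Slc38 carriers move glutamine and other small neutral amino acids, Slc36 carriers use protons, and Slc43 carriers move large neutral amino acids by facilitated diffusion. In the nervous system, astrocytes and radial glia take up glutamate and GABA through Slc1 and Slc6 carriers, and glutamine passes between cells through Slc38 carriers.

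All values are log2 values as deposited. A gene was tested if it reached 4 on at least 3 arrays, since weaker values lie near the floor of the array. Differences are given as rNCSC minus pNCSC, with the standard error (SE) and the Benjamini-Hochberg adjusted p of limma, and a gene with an adjusted p under 0.05 is called higher or lower. Where the lower group lay under 4 on any array, those arrays were set to 4 and the fold is a lower bound, written as at least. Over all probe sets, the correlation was 0.988 or more within a group and 0.833 to 0.844 between groups. A principal component holding 2.25% of the variance set pNCSC replicate 1 apart from the other pNCSC arrays. Olig2, an oligodendrocyte lineage factor that the labels name, was at 12.65 to 12.91 in rNCSC and 2.26 to 2.63 in pNCSC, and Cnp was 3.91-fold higher in rNCSC. Sox10 and Ngfr, which mark peripheral glia and neural crest, were under 4 in rNCSC and at 4.43 to 5.44 and 6.22 to 8.55 in pNCSC.

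Of the 58 transporter genes, 34 reached the level for testing and 24 were too dim. Of the 34, 10 were higher in rNCSC, 21 were higher in pNCSC, while 3 missed the threshold. Of all 11722 genes tested, 73.3% were called, 40.2% as higher and 33.1% as lower in rNCSC. The groups did not overlap in 32 of the 34 transporter genes, against 78.2% of all tested genes. Of the 34, 10 reached 4 on the arrays of 1 culture only (3 in rNCSC, 7 in pNCSC) and so had to differ, and the share called is given as a description. Among the 19 at 4 or above on all 6 arrays, 17 were called, 6 higher in rNCSC and 11 higher in pNCSC. The share called among all genes at that level was not computed, so this count too is a description. The median difference of the 34 genes was -0.74, beside 0.12 for all tested genes, and the median size of the difference was 2.02, beside 0.94. A fold or bound of at least 2 was reached by 21 of the called transporter genes and of at least 16 by 8, where 45.3% and 8.35% of all tested genes were called with such folds. Against a log2 difference of 1 (treat of limma), 7 were called higher and 13 lower, beside 33.2% of all tested genes called. Both directions occurred in Slc1, Slc6, Slc7, Slc38 and Slc43, while the tested genes of Slc3 and Slc36 were all higher in pNCSC.

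**Figure D1:**
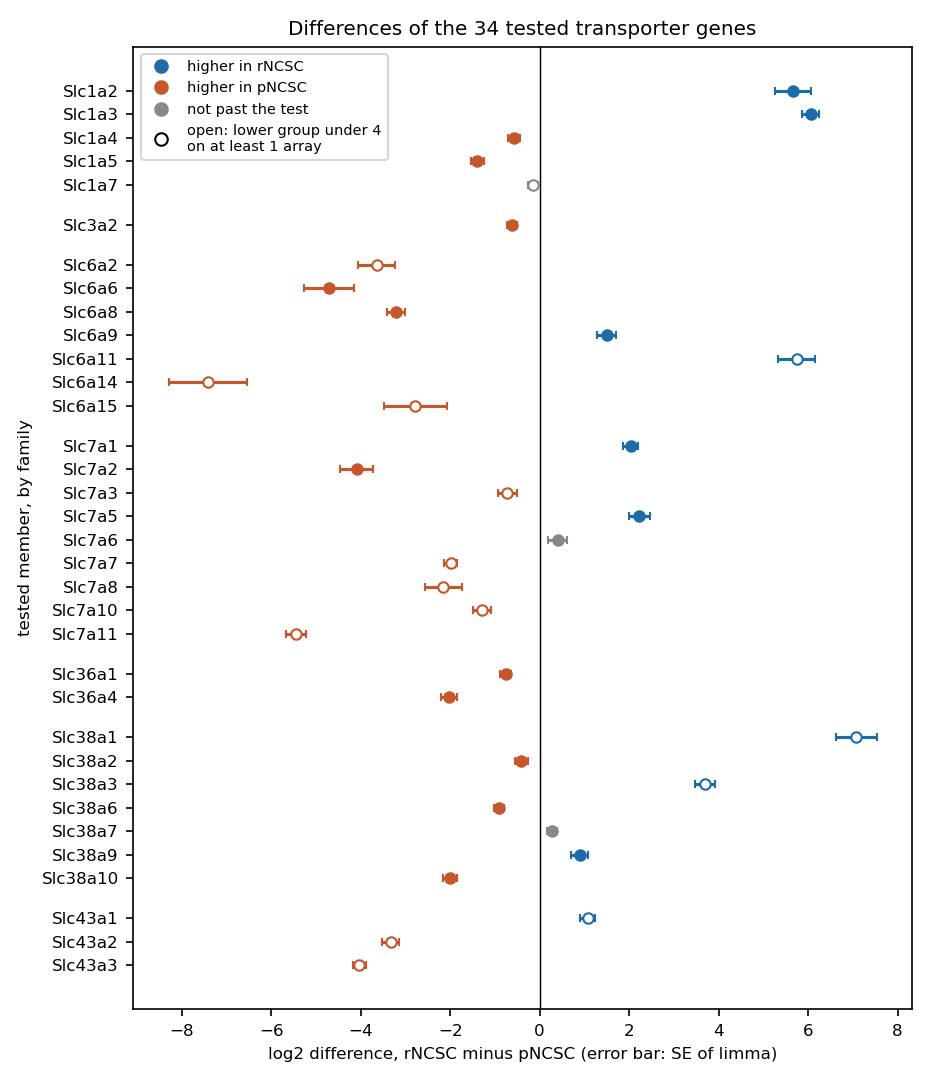
Each point is the log2 difference, rNCSC minus pNCSC, of a tested transporter gene, ordered by family, with the standard error of the limma fit; colours give the call and open symbols mark genes whose lower group lay under 4 on at least 1 array. Slc38a1 at 7.08 and Slc6a14 at -7.42 are open symbols, whose size rests in part on values under 4, and with those set to 4 the sizes are 6.78 and 6.04; most points lie left of 0.

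Of the 5 glutamate carriers of Slc1, 2 were far higher in rNCSC, 1 missed the threshold and 2 were too dim to test. Slc1a3, the glutamate and aspartate carrier of radial glia and astrocytes, was at 13.18, 13.66 and 13.52 on the rNCSC arrays and at 7.71, 7.29 and 7.19 on the pNCSC arrays. The groups were wide apart, a 66.6-fold difference (log2 difference 6.06, SE 0.19, adjusted p = 6.9e-07). All 5 other probe sets of Slc1a3 were tested and called the same way, with log2 differences from 1.81 to 6.76. Slc1a2, the main glutamate carrier of mature astrocytes, was at 10.93, 10.98 and 11.68 in rNCSC and at 6.02, 4.64 and 5.94 in pNCSC. It was 50.6-fold higher in rNCSC (difference 5.66, SE 0.41, adjusted p = 2.7e-05), with pNCSC replicate 2 the lowest array. Of its 4 other probe sets, 3 were too dim, and the tested one was called the same way with a difference of 1.97. With the mean of all its probe sets the difference was 1.79 (adjusted p = 2.1e-05). A probe set shared with the predicted gene Gm13872 was left out.

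The other glutamate carriers were at or near the floor. Slc1a1, the neuronal carrier, reached 5.46 on rNCSC replicate 1 but lay at 3.71 and 3.44 on the other rNCSC arrays and at 2.73 to 2.95 in pNCSC, and was not tested. Slc1a6, the carrier of cerebellar Purkinje cells, was under 4 on all 6 arrays. Slc1a7, the carrier of the retina, was at 3.88 to 4.13 in rNCSC and 4.05 to 4.27 in pNCSC, where the groups overlapped (adjusted p = 0.31).

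The neutral amino acid exchangers of Slc1 went the other way. Slc1a5, which exchanges glutamine and other neutral amino acids, was at 5.74, 5.42 and 5.58 in rNCSC and at 6.91, 7.16 and 6.85 in pNCSC, 2.62-fold higher in pNCSC (difference -1.39, SE 0.14, adjusted p = 0.00014). The other Slc1a5 probe set was too dim to test. Slc1a4, a carrier of serine, alanine and cysteine, was at 9.13, 8.81 and 8.89 against 9.42, 9.59 and 9.55. That 1.49-fold difference passed the test (adjusted p = 0.006), and both other probe sets of Slc1a4 were called in the same direction.

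In Slc6, 7 of 18 genes were tested, 2 higher in rNCSC and 5 higher in pNCSC. Slc6a11, a GABA carrier of glia, was at 9.34, 7.81 and 9.29 in rNCSC and at 3.21, 3.26 and 2.76 in pNCSC. All pNCSC arrays lay under 4 and all rNCSC arrays far above it, so that Slc6a11 was at least 28.1-fold higher in rNCSC (difference 5.74, SE 0.42, adjusted p = 2.9e-05). Slc6a9, the glycine carrier of glia, was at 6.10, 5.69 and 6.25 in rNCSC and at 4.82, 4.23 and 4.50 in pNCSC, 2.83-fold higher in rNCSC (adjusted p = 0.00065). Its other probe set, at means of 4.12 and 4.01, was not called.

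The taurine and creatine carriers were higher in pNCSC, while the betaine and GABA carrier Slc6a12 was under 4 on all 6 arrays (2.55 to 2.80). Slc6a6, the taurine carrier, was at 8.27, 6.04 and 7.70 in rNCSC and at 11.72, 12.32 and 12.08 in pNCSC, a 26.1-fold difference (difference -4.71, SE 0.55, adjusted p = 0.00026). Replicate 2 was the lowest rNCSC array, and without it the fold was 16.7. Slc6a8, the creatine carrier, was at 7.61, 8.27 and 7.79 against 10.91, 11.27 and 11.11, which made it 9.23-fold higher in pNCSC (difference -3.21, SE 0.20, adjusted p = 1.3e-05). The second probe set of Slc6a8 gave a log2 difference of -3.10, and of the 3 other probe sets of Slc6a6 both that were tested were also lower in rNCSC.

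Slc6a14, a carrier of neutral and cationic amino acids known from mucosal epithelia, was under 4 on every rNCSC array. It was at 2.53, 2.61 and 2.72 in rNCSC and at 12.13, 8.38 and 9.60 in pNCSC, at least 65.8-fold higher in pNCSC (difference -7.42, SE 0.87, adjusted p = 0.00027). The pNCSC arrays were widely spread, and the bound was 31.9 without pNCSC replicate 1 and 117 without pNCSC replicate 2, with the call kept. The second probe set of Slc6a14 was called the same way, with a smaller log2 difference of -2.81. Of 9 epithelial marker genes, 5 were under 4 on all 6 arrays, among them Cdh1, Krt14 and Krt4, and the mean of the list was 3.13 to 3.19 in rNCSC and 4.11, 3.99 and 3.72 in pNCSC. Krt18 was at 7.22, 4.95 and 4.25 and Epcam at 5.42 to 5.58 in pNCSC. The part of epithelial cells in the Slc6a14 values was not tested. In RNA of whole cultures, fewer cells of a type and less RNA per cell cannot be told apart.

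Slc6a15, a carrier of branched-chain amino acids and proline in neurons, was at 5.84, 3.07 and 3.62 in rNCSC and at 7.57, 6.65 and 6.67 in pNCSC. Replicate 1 stood above the other rNCSC arrays, and the gene was at least 5.09-fold higher in pNCSC (adjusted p = 0.01), or at least 7.79-fold without that array. The neuron marker list (10 genes) also had its highest mean on rNCSC replicate 1, at 5.61 against 4.86 and 4.95, and was at 3.83 to 4.07 in pNCSC. Its genes were divided, with 5 higher in rNCSC, led by Elavl4 (at least 94.2-fold), and Snap25 15.7-fold higher in pNCSC, the direction of Slc6a15. Under 4 on every array of a group were 2 of its genes in rNCSC and 7 in pNCSC, and its part in the Slc6a15 values was not tested.

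The noradrenaline carrier Slc6a2 was at 2.43, 2.43 and 2.44 in rNCSC and at 6.64, 6.53 and 5.04 in pNCSC, at least 4.21-fold higher in pNCSC (adjusted p = 0.00024). This rested on 1 probe set, since of the 3 others 2 were too dim and the remaining probe set did not pass the test (difference -0.22). The serotonin carrier Slc6a4 and the dopamine carrier Slc6a3 were under 4 on all 6 arrays. On the pNCSC arrays Slc6a4 had values of 3.18, 3.67 and 3.91, and the 8 mast cell marker genes had means of 4.35, 6.26 and 7.18 on the same arrays. Of these 8 genes, 7 were under 4 on all rNCSC arrays and none was under 4 on all pNCSC arrays, and their part in the Slc6a4 values was not tested. The other dim Slc6 genes were Slc6a5, Slc6a7, Slc6a12, Slc6a13, Slc6a16, Slc6a17, Slc6a18, Slc6a19 and Slc6a21, among them the neuronal glycine carrier Slc6a5 and the brain proline carrier Slc6a7.

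**Figure D2:**
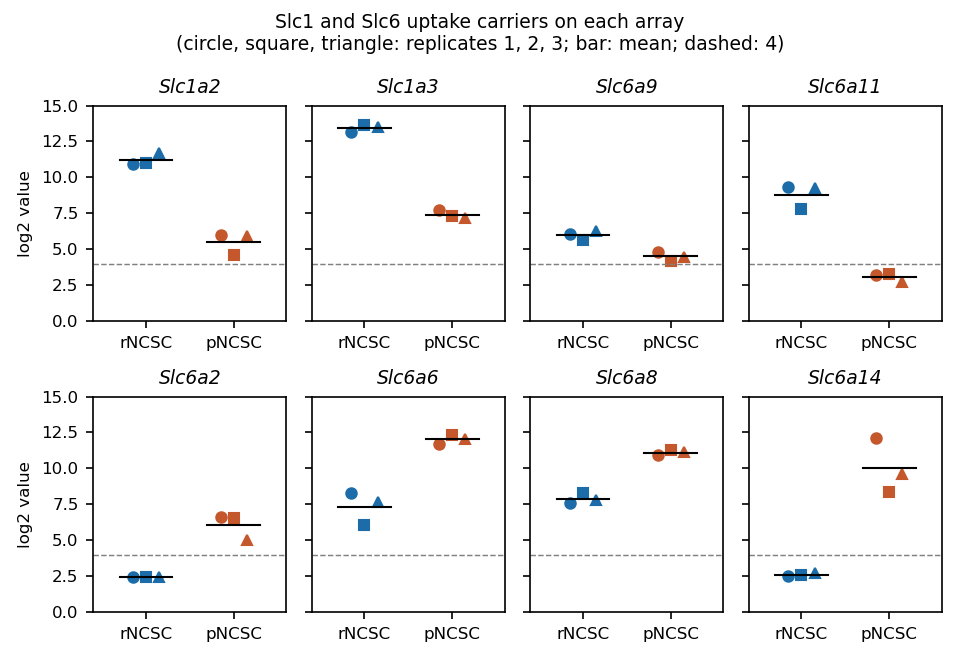
Log2 values of 8 Slc1 and Slc6 genes on each of the 3 rNCSC (blue) and 3 pNCSC (orange) arrays, with the group mean as a bar and the level of 4 as a dashed line. The glutamate, glycine and GABA carriers of the upper row are higher in rNCSC; the noradrenaline, taurine, creatine and neutral amino acid carriers of the lower row are higher in pNCSC, with Slc6a14 spread from 8.38 to 12.13 there.

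The heteromeric exchangers consist of a heavy chain that brings the complex to the cell surface and a light chain that carries the substrate. The heavy chain gene Slc3a2 was at 9.05, 9.19 and 9.25 in rNCSC and at 9.73, 9.81 and 9.82 in pNCSC. The groups did not overlap, with a 1.54-fold higher level in pNCSC (difference -0.62, SE 0.11, adjusted p = 0.002). The heavy chain of kidney and gut, Slc3a1, and its partner Slc7a9 were under 4 on all 6 arrays. Among the light chains of Slc3a2, 1 was higher in rNCSC, 4 were higher in pNCSC, while 1 missed the threshold.

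Slc7a5, the light chain for large neutral amino acids such as leucine, was the light chain higher in rNCSC. It was at 9.20, 9.26 and 9.57 there and at 6.65, 7.47 and 7.21 in pNCSC, a 4.69-fold difference (difference 2.23, SE 0.23, adjusted p = 0.00015). Slc7a8, a light chain with a similar but broader substrate range, was under 4 in rNCSC (3.28 to 3.38) and at 6.44, 4.72 and 5.29 in pNCSC, at least 2.8-fold higher in pNCSC (adjusted p = 0.0027). Slc7a6, which exchanges cationic for neutral amino acids, was at 8.10, 7.51 and 7.86 against 7.13, 7.39 and 7.77. The groups overlapped (difference 0.40, SE 0.22, adjusted p = 0.14). Its relative Slc7a7 was under 4 in rNCSC (2.49 to 2.61) and at 4.82, 4.35 and 4.45 in pNCSC, a bound of 1.45-fold (adjusted p = 3.4e-05). The other Slc7a7 probe set was too dim to test. Slc7a10, a carrier of small neutral amino acids including D-serine, was at 3.25 to 3.40 in rNCSC and at 4.60, 4.97 and 4.23 in pNCSC, at least 1.51-fold higher there (adjusted p = 0.001).

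Slc7a11, the light chain that imports cystine in exchange for glutamate and so feeds glutathione synthesis, had the largest fold or bound among the light chains. It was at 3.26, 3.37 and 3.48 in rNCSC and at 9.10, 8.32 and 9.03 in pNCSC. Every rNCSC array was under 4, and the gene was at least 28.2-fold higher in pNCSC (difference -5.45, SE 0.22, adjusted p = 2.0e-06). Its second probe set was called the same way, with a log2 difference of -3.32.

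Slc7a11 is known as a target of the transcription factor ATF4, which acts in amino acid shortage, and of NRF2, which acts in oxidative stress. Promoter windows of RefSeq (GRCm38.p6; 250 bases before to 50 after a gene's start) were held for 41 of the 58 genes, and were searched on both strands for the letters TGATGNAAN, the core of the C/EBP-ATF response element. The letters were present in windows of 4 of the 41 genes, Slc7a11, Slc1a4, Slc7a7 and Slc6a21, against 4.5% of all genes in the table. With the 150 bases before the start only, they were present for 3 of the 41, against 2.53% of all genes in the table. The first 3 genes were higher in pNCSC, as were 21 of all 31 called transporter genes, and Slc6a21 was too dim to test. The windows of the genes called in this comparison are shown because they carry the matches, which stand in capitals, on the strand of the gene and with the start of transcription at base 251. The Slc7a11 window lies at chr3:50443564-50443863 (minus strand), the Slc1a4 window at chr11:20332664-20332963 (minus strand) and the Slc7a7 window at chr14:54417895-54418194 (minus strand).
Slc7a11: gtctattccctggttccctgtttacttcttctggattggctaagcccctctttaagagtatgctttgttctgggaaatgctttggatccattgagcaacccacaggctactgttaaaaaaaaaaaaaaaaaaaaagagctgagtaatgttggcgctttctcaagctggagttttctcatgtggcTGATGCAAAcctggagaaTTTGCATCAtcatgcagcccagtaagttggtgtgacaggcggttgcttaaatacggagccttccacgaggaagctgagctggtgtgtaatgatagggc
Slc1a4: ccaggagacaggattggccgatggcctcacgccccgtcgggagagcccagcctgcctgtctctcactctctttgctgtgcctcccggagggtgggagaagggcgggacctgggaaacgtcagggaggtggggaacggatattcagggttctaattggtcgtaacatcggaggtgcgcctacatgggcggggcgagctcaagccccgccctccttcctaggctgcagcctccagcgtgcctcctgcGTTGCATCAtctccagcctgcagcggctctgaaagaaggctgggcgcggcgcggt
Slc7a7: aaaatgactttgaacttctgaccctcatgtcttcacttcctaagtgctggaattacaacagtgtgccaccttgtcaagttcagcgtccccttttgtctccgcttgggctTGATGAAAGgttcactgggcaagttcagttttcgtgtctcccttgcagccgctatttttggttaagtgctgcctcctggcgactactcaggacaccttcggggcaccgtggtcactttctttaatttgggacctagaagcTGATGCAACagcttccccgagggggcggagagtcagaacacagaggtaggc
Slc7a11 has 2 matches that face each other, the leftmost base of each at positions -66 and -48 from the start. The Slc1a4 match begins at position -5, on the opposite strand. The Slc7a7 matches begin at -141 and -1, and the second of them also lies in another window of that gene. The core of the antioxidant response element, searched as TGACNNNGC on both strands, was present for 9 of the 41 genes against 14% of all genes in the table. The 9 were Slc43a1, Slc6a9, Slc7a1 and Slc6a11, which were higher in rNCSC, Slc36a1 and Slc38a2, which were higher in pNCSC, Slc7a6, which did not pass the test, and the dim Slc6a13 and Slc6a16. A match is only a run of letters and was not tested for binding.

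The cationic amino acid carriers were divided. Slc7a1, the widely expressed arginine and lysine carrier, was at 8.85, 8.43 and 8.86 in rNCSC and at 6.52, 6.90 and 6.62 in pNCSC. It was 4.1-fold higher in rNCSC (difference 2.03, SE 0.17, adjusted p = 5.6e-05), with a second probe set at a difference of 2.10. Slc7a2, known as the inducible cationic carrier of macrophages and liver, was at 7.45, 6.52 and 8.03 against 11.34, 11.27 and 11.66 and so 17-fold higher in pNCSC (difference -4.09, SE 0.37, adjusted p = 7.6e-05). All 3 other probe sets of Slc7a2 were lower in rNCSC too, by log2 values from -1.89 to -3.94. Of 8 leukocyte and macrophage markers, 5 were under 4 on all 6 arrays, among them Ptprc, Csf1r and Aif1, and the list had means of 2.94 to 3.01 in rNCSC and 4.46 to 4.85 in pNCSC. The 2 tested markers were higher in pNCSC, as Slc7a2 was. Cd14 was at 11.19, 9.10 and 9.34 there and under 4 on the rNCSC arrays, which gave a bound of 58.6-fold, or 37.2-fold without pNCSC replicate 1. Cd53 was at 9.11, 7.21 and 7.92 in pNCSC, at least 16.9-fold higher. The part of these markers in the Slc7a2 values was not tested. Slc7a3, another cationic carrier, lay near the floor at 4.35, 3.78 and 3.76 against 4.44, 4.91 and 4.69. Its call (at least 1.48-fold, adjusted p = 0.018) did not survive leaving out replicate 2 or 3 of either group (adjusted p between 0.052 and 0.064 with the tested genes kept). The dim Slc7 genes were Slc7a4, Slc7a9, Slc7a12, Slc7a13, Slc7a14 and Slc7a15.

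**Figure D3:**
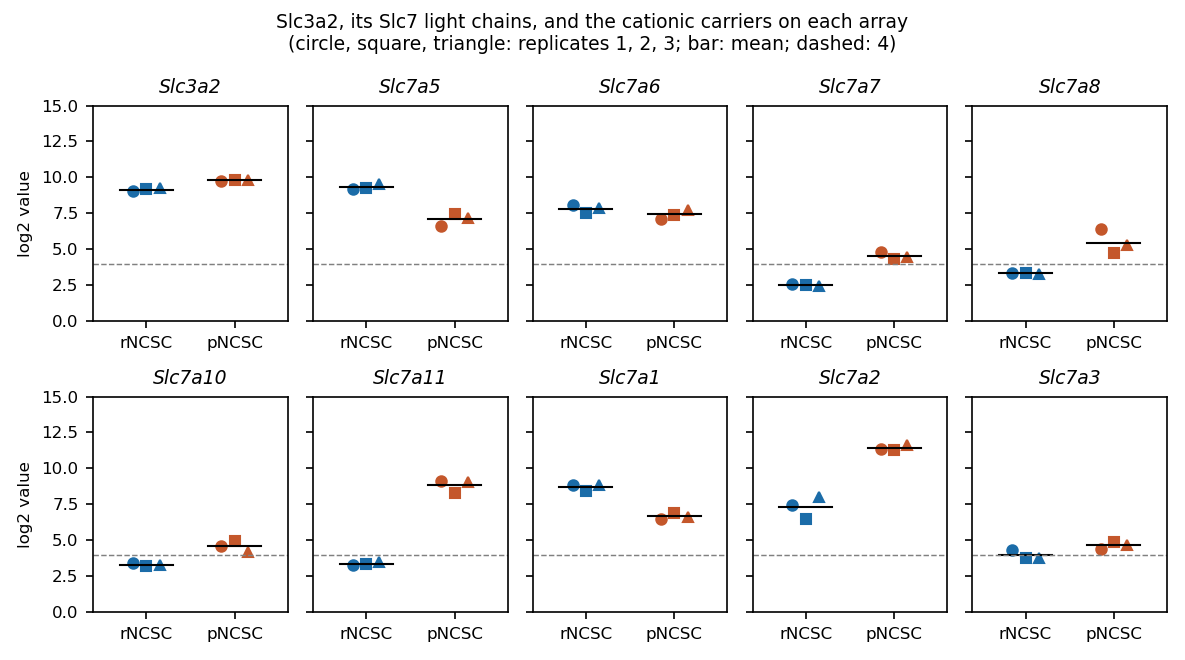
Log2 values of Slc3a2, 6 Slc7 light chains and 3 cationic amino acid carriers on each rNCSC (blue) and pNCSC (orange) array, with the group mean as a bar and the level of 4 as a dashed line. Slc7a5 and Slc7a1 are higher in rNCSC, Slc7a6 overlaps, and Slc7a11 is under 4 on every rNCSC array and between 8.32 and 9.10 in pNCSC.

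With values under 4 set to 4, the Slc38 family held the largest fold or bound of the 34 genes, that of Slc38a1. The difference of the deposited values was larger in size for Slc6a14 (-7.42), so the bounds do not rank these genes. Slc38a1, a glutamine carrier of neurons and progenitors, was at 11.18, 11.13 and 11.26 in rNCSC and at 5.22, 3.65 and 3.44 in pNCSC. Replicate 1 was the only pNCSC array above 4, and the gene was at least 110-fold higher in rNCSC (difference 7.08, SE 0.45, adjusted p = 1.5e-05). A second probe set gave a difference of 2.69 in the same direction. Slc38a3, the glutamine carrier through which astrocytes release and take up glutamine, was at 7.28, 6.50 and 6.59 in rNCSC and at 3.08 to 3.10 in pNCSC, at least 6.91-fold higher in rNCSC (difference 3.70, SE 0.22, adjusted p = 1.0e-05). The other Slc38a3 probe set was too dim, at means of 3.32 in rNCSC and 3.24 in pNCSC. Slc38a9, an arginine sensor of the lysosome, was at 7.28, 6.85 and 6.75 against 6.32, 5.90 and 5.98, 1.86-fold higher in rNCSC (adjusted p = 0.0045). Of its 5 other tested probe sets, 3 were called the same way, while 2 missed the threshold.

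In the opposite direction, Slc38a10 was at 8.98, 8.91 and 8.93 in rNCSC and at 11.22, 10.69 and 10.91 in pNCSC, 3.99-fold higher in pNCSC (SE of the log2 difference 0.15, adjusted p = 3.7e-05), and its 5 other tested probe sets were called likewise. Slc38a6 was 1.88-fold higher in pNCSC (5.62 to 5.68 against 6.41 to 6.65, adjusted p = 0.00036), and its second probe set was too dim. That call was lost with the mean of both probe sets (difference -0.26, adjusted p = 0.057). Slc38a2, a system A carrier known to respond to amino acid shortage, was at 12.37, 12.06 and 12.42 against 12.74, 12.59 and 12.75. The groups did not overlap, but the 1.33-fold difference was small (adjusted p = 0.031), and the call did not survive leaving out replicate 1 or 2 of rNCSC, nor replicate 1 or 3 of pNCSC (adjusted p between 0.051 and 0.092). Slc38a7, a glutamine carrier of lysosomes, was at 5.16, 5.08 and 5.27 in rNCSC and at 4.97, 4.83 and 4.85 in pNCSC. It did not pass the test (difference 0.28, SE 0.11, adjusted p = 0.054), and was called in 6 of 22 alternatives, with adjusted p from 0.01 to 0.15 over all of them. The dim members were Slc38a4 and Slc38a5.

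Slc38a1, Slc38a2 and Slc38a4 are neighbours on chromosome 15 in the RefSeq annotation, with no protein-coding gene between them, yet their values differed in kind: Slc38a1 was far higher in rNCSC, Slc38a2 was slightly higher in pNCSC and Slc38a4 was under 4 on all 6 arrays. Slc43a1 and Slc43a3 on chromosome 2, with only Rtn4rl2 between them, were called in opposite directions. On chromosome 11, Slc36a1 was higher in pNCSC while its neighbours Slc36a2 and Slc36a3 were under 4 on all 6 arrays.

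In Slc43, Slc43a2 and Slc43a3 were higher in pNCSC. Slc43a2, a carrier of leucine and other large neutral amino acids, was at 4.15, 3.81 and 3.94 in rNCSC and at 7.18, 7.06 and 7.65 in pNCSC, at least 9.5-fold higher in pNCSC (difference -3.33, SE 0.19, adjusted p = 8.4e-06). Slc43a3, which carries purine nucleobases rather than amino acids, was at 3.12, 2.85 and 2.89 against 7.22, 6.85 and 6.87, at least 7.89-fold higher in pNCSC (difference -4.03, SE 0.15, adjusted p = 1.3e-06). Slc43a1 was above 4 in rNCSC only, at 4.52, 4.31 and 4.86 against 3.56, 3.57 and 3.34, a bound of 1.48-fold (adjusted p = 0.0011).

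Both tested Slc36 genes were higher in pNCSC. Slc36a4, a carrier of proline and tryptophan, was at 7.59, 8.18 and 7.85 in rNCSC and at 9.72, 9.94 and 10.02 in pNCSC, a 4.06-fold difference (difference -2.02, SE 0.18, adjusted p = 7.0e-05). Slc36a1, a proton-coupled carrier of lysosomes, was at 5.09, 5.23 and 5.23 against 6.10, 5.80 and 5.95, 1.7-fold higher in pNCSC (adjusted p = 0.0014).

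**Figure D4:**
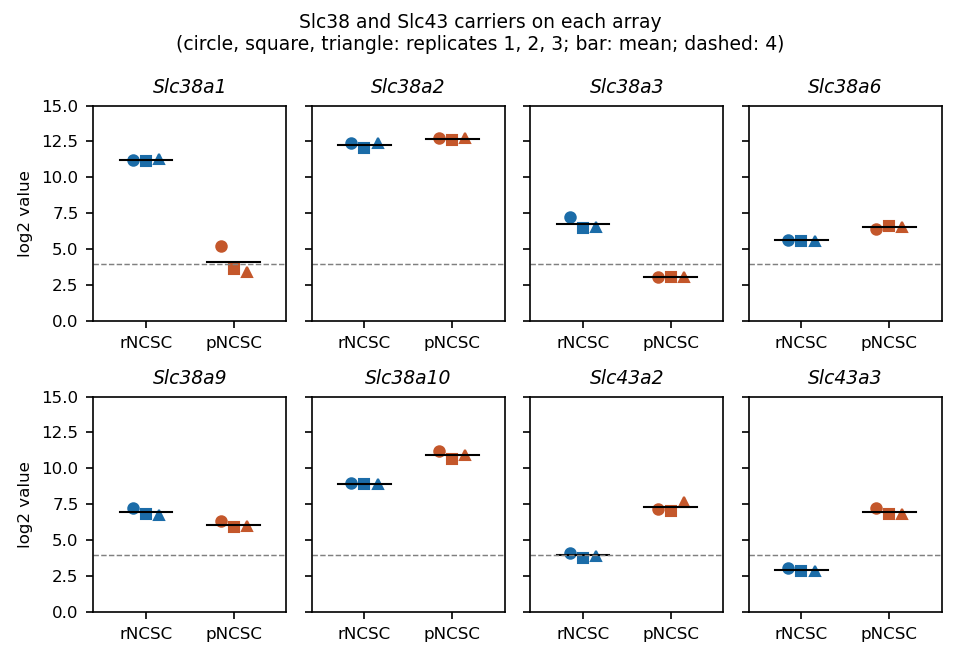
Log2 values of 6 Slc38 and 2 Slc43 genes on each rNCSC (blue) and pNCSC (orange) array, with the group mean as a bar and the level of 4 as a dashed line. Slc38a1 is near 11 on every rNCSC array and above 4 on pNCSC replicate 1 only, whereas Slc38a2 is between 12.06 and 12.75 on all 6 arrays.

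Of the 31 called transporter genes, 16 had another probe set bright enough to test. In 12 of the 16 all such probe sets were called in the same direction, and in 0 was any called the opposite way. The other 4 were Slc6a2, Slc6a9, Slc38a2 and Slc38a9, each with at least 1 probe set that did not pass the test. With the mean of all probe sets of a gene, including dim ones, 29 of the 31 could be tested, while Slc6a2 and Slc7a7 became too dim. For 15 of the 29 the fold moved by over 1.5 times, each towards a smaller difference. The log2 difference then was 2.88 for Slc6a11, 4.88 for Slc38a1, 1.89 for Slc38a3, -5.11 for Slc6a14, -2.93 for Slc6a6 and -1.93 for Slc43a2.

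Enzymes that make or break down the carried substrates were read from lists of related genes. For glutamate and GABA, 5 of 8 measured enzymes were higher in rNCSC, 2 were higher in pNCSC and Glud1 did not pass the test. That made 87.5% called, beside 73.3% of all tested genes. Beside the GABA carrier Slc6a11, the GABA transaminase Abat was at 10.25 to 10.96 in rNCSC and 5.47 to 5.83 in pNCSC, 30.5-fold higher in rNCSC (adjusted p = 2.1e-06). Aldh5a1, the next enzyme of GABA breakdown, was at least 11.1-fold higher in rNCSC. Gad1, which makes GABA from glutamate, was the reverse, at 5.37, 6.14 and 4.72 in rNCSC and 10.65, 10.47 and 11.14 in pNCSC, 40.6-fold higher in pNCSC (adjusted p = 2.2e-05). Gad2 was at least 1.29-fold higher in pNCSC. Glutamine synthetase, Glul, was 1.66-fold higher in rNCSC (adjusted p = 0.042). The Glul call was lost without any single pNCSC array (adjusted p between 0.079 and 0.1), and without rNCSC replicate 2 the fold was 1.34. Of 8 measured vesicular and lysosomal carriers of transmitters and related anions, 5 were not tested. The glutamate carriers Slc17a6 and Slc17a7, the monoamine carrier Slc18a1 and the acetylcholine carrier Slc18a3 were under 4 on all 6 arrays, and the monoamine carrier Slc18a2 was above 4 on 2 pNCSC arrays only, at 4.34 and 4.88. Of the 3 tested, the lysosomal sialic acid carrier Slc17a5 was called, 1.59-fold higher in pNCSC, while the GABA carrier Slc32a1 and the nucleotide carrier Slc17a9 missed the threshold.

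Beside the glycine carrier Slc6a9, all 5 measured genes of glycine cleavage and serine hydroxymethylation were higher in rNCSC. Of all tested genes, 73.3% were called and 40.2% were higher in rNCSC. Gldc, the decarboxylase of the glycine cleavage system, was at 8.97 to 9.46 in rNCSC and 3.49 to 3.67 in pNCSC, at least 35.3-fold higher, and Shmt1 was 11.7-fold higher.

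For creatine, the carrier and the enzymes were called in opposite directions. Where Slc6a8 was 9.23-fold higher in pNCSC, Gatm, the first enzyme of creatine synthesis, was at 11.90, 10.56 and 11.94 in rNCSC and 3.62, 3.89 and 4.37 in pNCSC, at least 163-fold above pNCSC (adjusted p = 6.9e-06). Gamt, the second enzyme, was at least 2.8-fold higher in rNCSC, and the creatine kinase gene Ckb was 78.9-fold higher in rNCSC (adjusted p = 2.8e-06). For taurine, Cdo1, which oxidises cysteine on the way to taurine, was higher in pNCSC as the carrier Slc6a6 was, at 10.38, 11.93 and 11.25 against 8.58, 4.99 and 5.86 (26.1-fold, adjusted p = 0.0031). The fold was 54.1 without rNCSC replicate 1 and 15.6 without rNCSC replicate 2. Both Cdo1 and Slc6a6 were lowest on rNCSC replicate 2. Csad, the next enzyme, did not pass the test and Ado was 1.79-fold higher in rNCSC.

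Beside the noradrenaline carrier Slc6a2, the enzymes of noradrenaline synthesis Th and Ddc were under 4 on all 6 arrays, and Dbh was at 4.42 to 4.85 on all arrays (adjusted p = 0.51). Maob, a monoamine oxidase, was at least 35.4-fold higher in pNCSC, and Maoa was 1.92-fold higher in rNCSC (adjusted p = 0.029). The Maoa call did not survive leaving out replicate 1 or 3 of either group (adjusted p between 0.061 and 0.096).

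Beside the cystine carrier Slc7a11, 5 of 8 measured genes among NRF2, Keap1 and NRF2 targets were higher in pNCSC. Txnrd1 was higher in rNCSC (1.91-fold), while Keap1 and Gclm did not pass the test. The share called was thus 75%, close to the 73.3% of all tested genes. Srxn1, which repairs peroxiredoxins, was 23.7-fold higher in pNCSC (5.37 to 5.63 against 10.03 to 10.18, adjusted p = 3.6e-07). Gclc, the first enzyme of glutathione synthesis, was 7.04-fold and Nqo1 7.61-fold higher in pNCSC. Of the 19 tested genes of the ATF4 amino acid response, 8 were higher in pNCSC, 4 were higher in rNCSC, while 7 missed the threshold, so that 63.2% were called beside 73.3% of all tested genes. Cebpb was 127-fold higher in pNCSC (adjusted p = 2.3e-06), Atf5 8.98-fold and Atf3 at least 5.9-fold. Atf4 itself was at 12.02 to 12.37 in rNCSC and 12.48 to 12.84 in pNCSC without passing the test (adjusted p = 0.057), and Asns, a frequently used readout of the pathway, did not pass either (adjusted p = 0.58). The 4 genes higher in rNCSC were Cbs (at least 4.79-fold) and the tRNA synthetases Aars (2.02-fold), Wars (1.93-fold) and Gars (1.42-fold).

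Among 19 measured genes through which the growth kinase complex mTORC1 senses amino acids, 6 were higher in rNCSC, 4 were higher in pNCSC, while 9 missed the threshold, so that 52.6% were called beside 73.3% of all tested genes. Rragd, a GTPase of the lysosomal surface, was at 10.40 to 10.76 in rNCSC and 6.65, 4.13 and 3.52 in pNCSC, at least 49.9-fold above pNCSC (adjusted p = 0.00046). As with Slc38a1, replicate 1 was the highest pNCSC array, and without it the bound was 90.6. Castor1, the cytosolic arginine sensor, was 9.39-fold higher in pNCSC, whereas the lysosomal arginine sensor Slc38a9 was higher in rNCSC. Among 10 tested carriers of amino acids and peptides from other families, 3 were higher in rNCSC, led by the peptide carrier Slc15a2 (8.4-fold), and 6 were higher in pNCSC, led by Slc15a3 (at least 6.79-fold). That made 90% called, beside 73.3% of all tested genes.

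**Figure D5:**
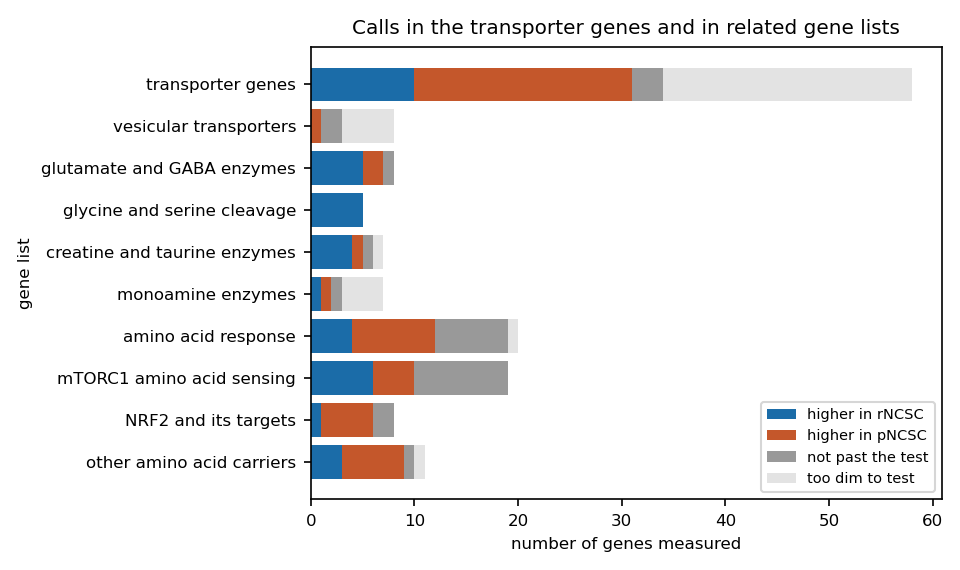
Bars count the measured genes of the transporter families and of 9 related lists that were higher in rNCSC (blue), higher in pNCSC (orange), tested without passing (dark grey) or too dim to test (light grey). The glycine and serine cleavage list is all blue (5 genes). The list labelled NRF2 and its targets, which also holds Keap1, is mostly orange (5 of 8 genes). Of all tested genes, 40.2% were called higher and 33.1% lower in rNCSC.

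Markers of other cell types differed between the cultures along with the transporters. The 8 astrocyte and radial glia markers had means of 7.58 to 7.98 in rNCSC and 4.68 to 5.05 in pNCSC, with 2 of the 8 (Gfap and Gjb6) under 4 on all 6 arrays. Fabp7 was 862-fold and Aqp4 at least 8.86-fold higher in rNCSC, while S100b was 3.56-fold higher in pNCSC, or 5.5-fold without rNCSC replicate 2. The part of these markers in the values of Slc1a2, Slc1a3, Slc6a11 and Slc38a3 was not tested. The 8 mesenchymal markers had means of 3.04 to 3.53 in rNCSC and 11.75 to 12.71 in pNCSC, and 7 of them were under 4 on all rNCSC arrays. All 8 were higher in pNCSC, with Col3a1 at least 1411-fold, and their part in the values of Slc6a6, Slc7a2, Slc7a11 and Slc43a3 was not tested. The 6 mural markers had means of 3.90 to 4.25 and 9.27 to 9.33, the 6 oligodendrocyte markers measured 7.87 to 8.04 and 3.93 to 4.10, and the 5 neural crest and Schwann cell markers measured 3.34 to 3.70 and 5.67 to 7.02, in rNCSC and pNCSC. Among the oligodendrocyte markers, Olig1, Olig2 and Cnp were higher in rNCSC. The myelin genes Mog and Mag were under 4 on all 6 arrays, and Mbp was too dim to test. All 6 endothelial markers, and 5 of 6 melanocyte markers, were under 4 on all 6 arrays.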

How the data were processed

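Total RNA (500 ng) was hybridised to Affymetrix mouse arrays, per the labels' protocols. Deposited were log2 values made by the authors with GCRMA, per the submitters' processing notes, which give no version; the log2 scale was read from the range of 1.22 to 15.58. GCRMA equalises the arrays and compresses weak probe sets, so a change shared by most genes would be hidden, and differences near the floor are understated. Precision is limited by 3 arrays per group.

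The platform annotation gave 34958 probe sets 1 symbol, 932 several (left out) and 9211 none here. Of 18194 genes, 6472 reached 4 on fewer than 3 arrays, leaving 11722 for limma 3.58.1 (lmFit, eBayes; R 4.3.3), two-sided, without covariates, Benjamini-Hochberg adjusted over all 11722. The step was run on simulated data as a check of the code only, with far fewer changed genes than were called here. With 3 arrays in each group, the smallest p of an exact permutation test is 0.1.

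The transporter genes and lists were chosen with earlier results of these data known. Named in full were up to 4 genes per family and direction and every gene that did not pass; of related lists, up to 3 per direction, beside the 4 genes in the labels and, chosen after their values were seen, Atf4, Asns and enzymes of carried substrates. Alternatives covered the filter, probe set, normalization, variance prior, array weights, replicate block, leaving out each array, treat, the floor and the promoter window.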

Additional observations from a re-analysis of the deposited data

How the results depend on the processing

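The main counts were 10 transporter genes higher and 21 lower in rNCSC. Across 25 alternatives the count of higher genes ran from 7 to 13. The count of lower genes ran from 18 to 24 with no filter, the filter at 3, other choices of probe set, every probe set tested, other scalings, other variance priors and array weights, and was 15 with the filter at 6. It was 13 when the difference had to exceed a log2 value of 1 (treat of limma), where 33.2% of all genes were called. Leaving out 1 array gave 7 to 11 higher and 12 to 20 lower genes; the lowest counts came from applying the filter again to 5 arrays, which drops genes that passed through that culture alone, and with the tested genes kept the counts were 10 to 11 and 19 to 20. Of the 31 called genes, 28 kept their call and direction in every alternative counted here in which they were tested. That count leaves out the fit on every probe set, and treat, where only 7 genes were called higher and 13 lower. Slc6a2 and Slc7a7 were among the 28 but were tested in only 18 and 17 of the alternatives. Both were too dim to test with the mean of their probe sets. Slc7a3 and Slc38a2 lost theirs without single arrays and Slc38a6 with the mean of its probe sets, and Slc38a7 was called in some; the cause was not tested. Over their alternatives the adjusted p ran from 0.0052 to 0.065 for Slc7a3, 0.0091 to 0.092 for Slc38a2, 3.7e-05 to 0.057 for Slc38a6 and 0.01 to 0.15 for Slc38a7. No direction reversed. The labels do not say whether equal replicate numbers share a batch. Deviations of equal numbers correlated at 0.035, -0.041 and -0.031, with too few arrays to settle this. With the replicate block the counts were again 10 and 21. Without the filter, 5 dim members were called (Slc1a6 and Slc36a3 higher, Slc6a4, Slc7a4 and Slc7a13 lower), all under 4 on all 6 arrays. With the floor for bounds at 3, the bound of Slc6a14 was 132. Slc38a1 and Slc7a11 had no array under that floor, and their measured folds were 135 and 43.6. The core of the antioxidant response element was present for 7 of 41 genes in the narrower promoter window, against 7.74% of all genes.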
